A study of Mus musculus with 2 samples.

Results

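The genes described here encode the phosphatases of the RNA polymerase II tail. There were 7 of them, Ssu72, Ctdp1, Rpap2, Ctdsp1, Ctdsp2, Ctdspl and Ctdspl2, among 21866 protein-coding genes of the mouse annotation. They were chosen by the known function of their products, at a time when the CHOP peak at Ssu72 had already been seen, and their peaks were selected on the distance of the summit from a start site. Promoter peaks are those whose summit lies at most 1 kb from where a protein-coding transcript begins. Distal peaks lie further away, up to 50 kb, and have the gene as their nearest. Of 14157 peaks in the list, 6 belonged to these genes under that rule. Because the peaks themselves led to the choice, their presence and their folds are described without a test.

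CHOP, the product of Ddit3, belongs to the C/EBP family of transcription factors and is induced by stress of the endoplasmic reticulum. ChIP-seq, the sequencing of DNA fragments pulled down with a CHOP antibody, located it in liver of wild-type (WT) mice given 1 mg/kg tunicamycin, a blocker of N-linked glycosylation, by intraperitoneal injection for 8 h. The immunoprecipitate is 1 library made from a pool of 3 mice, and the other sample is 1 library of input from tunicamycin-treated liver. The labels give no age, sex or strain, and the samples include no untreated or CHOP-deficient group. The values below therefore carry counting error only, not variation between animals, and the sources used here do not give the read depth of the libraries.

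The largest subunit of RNA polymerase II carries a long tail of heptad repeats whose serines are phosphorylated and dephosphorylated in each round of transcription. Kinases load phosphates on the tail at initiation and pause release, and phosphatases remove them so that the polymerase can process transcript ends and start again. SSU72 works with the cleavage and polyadenylation machinery near gene ends, the product of Ctdp1 (also called FCP1) recycles the polymerase, and RPAP2 acts early in transcription. The products of Ctdsp1, Ctdsp2 and Ctdspl are small phosphatases known for holding back neuronal genes in other tissues and for acting on SMAD proteins, and that of Ctdspl2 is a relative of theirs.

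Of the 7 genes, 4 had a promoter peak, namely Ssu72, Ctdp1, Ctdsp1 and Ctdsp2. Among all protein-coding genes 27.9% had one. Among the 11606 genes whose start sites were at least as rich in CpG as the lowest of the 7, 46.6% had one. That limit was an observed/expected ratio of 0.474 or more within 500 bp, as the mean over the start sites of a gene. It was set by Ctdp1, with 3 start sites, and the median ratio over all genes was 0.504. A distal peak was assigned to 2 of the 7, Ctdsp2 and Ctdspl2, against 18.0% of all genes. Either kind was present at 5 of 7, against 38.2% of all genes. Rpap2 and Ctdspl had neither. The strength of the promoter peaks was unequal: Ssu72 stood at 94.2-fold and the other 3 between 8.62-fold and 10.2-fold. The fold is the authors' value, the reads stacked at the summit plus 1 divided by the local background plus 1.

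**Figure D1:**
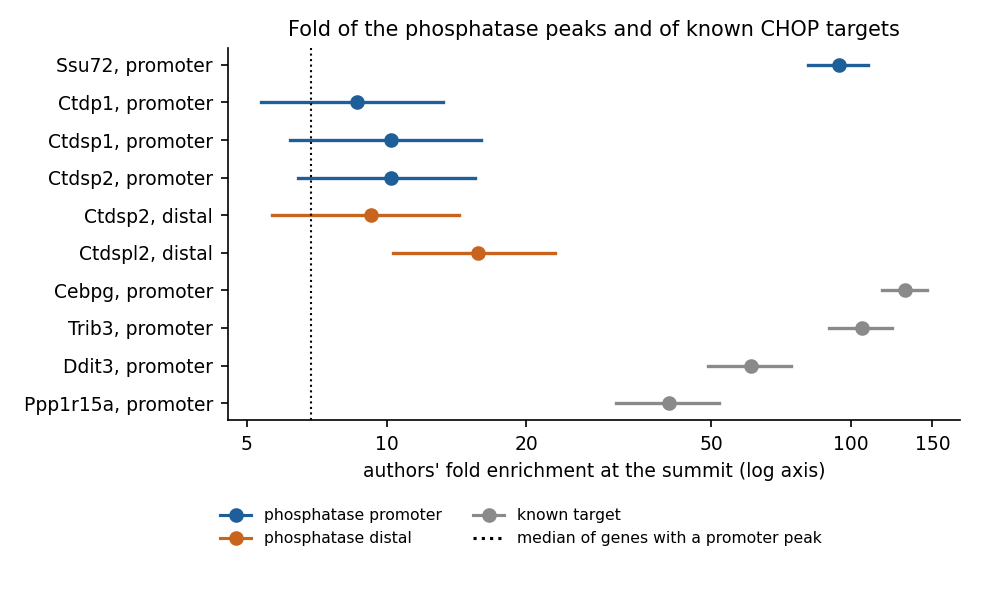
Authors' fold enrichment (log axis) of the 6 phosphatase peaks (blue, promoter; orange, distal) and of the promoter peaks of Cebpg, Trib3, Ddit3 and Ppp1r15a (grey), with exact Poisson intervals at 95% on the summit reads as bars. The dotted line marks the median over all genes with a promoter peak, 6.86. Ssu72 lies among the known targets, and the other 5 peaks lie between 8.62 and 15.7.

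Ssu72 encodes the phosphatase that pairs with the 3′-end processing complex. Its peak covered 846 bp of chromosome 4, 155704667 to 155705512 (mm10), and no other gene had a start site within 2 kb. The summit at 155705215 lay in the 5′ UTR of the first exon, 80 bp downstream of the nearer start site of the gene and 415 bp downstream of the outermost. At the summit 174 reads were stacked on a local background of 0.858 reads, which gave 94.2-fold with an exact Poisson interval at 95% of 80.8 to 109. Only 2 of the 6306 promoter peaks had a higher fold. Among the 6100 genes with a promoter peak Ssu72 ranked 3rd, and its fold was 13.7 times that of the median gene.

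On the same scale, Cebpg, which encodes a dimer partner of CHOP and ATF4, had 131-fold (117 to 146, 329 reads), above the interval of Ssu72. Trib3, a pseudokinase and known target of CHOP, had 106-fold (90.0 to 123, 161 reads), and the intervals of Trib3 and Ssu72 overlap. Ddit3 itself had 60.9-fold (49.2 to 74.5) and Ppp1r15a, whose product helps to restore translation after stress, 40.6-fold (31.2 to 51.9), both below the interval of Ssu72. Among the phosphatase genes with a promoter peak, the Ssu72 fold was 9.21 times that of Ctdsp1, 9.22 times that of Ctdsp2 and 10.9 times that of Ctdp1. Its interval did not overlap theirs.

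**Figure D2:**
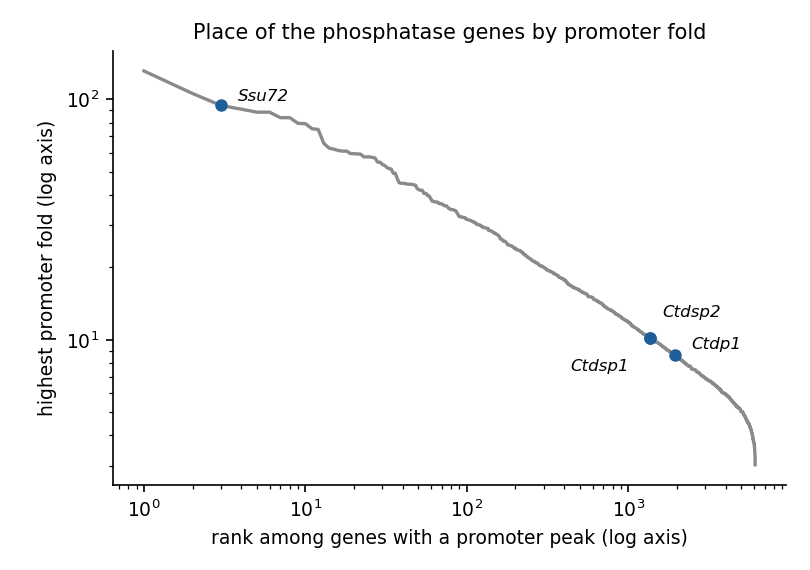
Highest promoter fold of each of the 6100 genes with a promoter peak against its rank (both axes log), with the 4 phosphatase genes marked. Ssu72 is at rank 3, and Ctdsp1, Ctdsp2 and Ctdp1 are at ranks 1359, 1361 and 1941.

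The sequence under the Ssu72 peak is shown because it holds several kinds of C/EBP and ATF site but not the composite element that CHOP and ATF4 are known for. The composite (TGATGNAA, either strand) had no match anywhere in the peak. Downstream of the summit TTGCG, the arm of a C/EBP site, was repeated 4 times head to tail, with the repeats beginning at 40, 45, 50 and 55 bp. Upstream of the summit was a full cyclic AMP response element (TGACGTCA), the palindrome that ATF and CREB dimers bind, with its first base at -95 bp, and a full C/EBP palindrome (TTGCGCAA) with its first base at -190 bp. The 3 stretches are printed below on the + strand, which is the gene's strand, from the GRCm38.p6 reference at chr4:155705250-155705279, chr4:155705109-155705138 and chr4:155705014-155705043, with each match in capitals.
Ssu72 repeated C/EBP arm: acgcgTTGCGTTGCGTTGCGTTGCGttcac
Ssu72 cyclic AMP response element: cgcaggtcctgTGACGTCAcgcgccggcga
Ssu72 C/EBP palindrome: agttttcagtaTTGCGCAAgcgccgcgcct

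These elements differ in how common they are. In windows of the same length and placement around all 14157 summits, 38.3% held at least 1 TTGCG on either strand, 2.44% the full cyclic AMP response element and 0.424% the C/EBP palindrome. Within 50 bp of the summit, TTGCG was present at 9.78% of all peaks and at 15.5% of promoter peaks. At least 3 TTGCG in a row were present in 1 peak of the list, that of Ssu72. The reference chromosomes held 8 matches to 3 in a row and 6 to 4 in a row. Matches in 1 run may overlap, so these need not be separate sites. TTGCG, alone and in runs, was searched after the Ssu72 sequence had been read. A match here describes letters under a peak and does not show that a factor binds them. The full C/EBP palindrome also counts as a match to the loose C/EBP site (TTNNGNAA), which 72.8% of such windows held, and it contains TTGCG once on each strand, which brings the TTGCG matches of the peak to 6. The peak further held 5 matches to the arm of the cyclic AMP response element (TGACG, 40.6% of such windows), of which 2 lie within the full element, as well as 2 CCAAT boxes, 2 ETS sites (CCGGAA) and 2 GC boxes (GGGCGG). All words of 20 bases within 50 bp of the summit occurred once in the reference chromosomes.

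**Figure D3:**
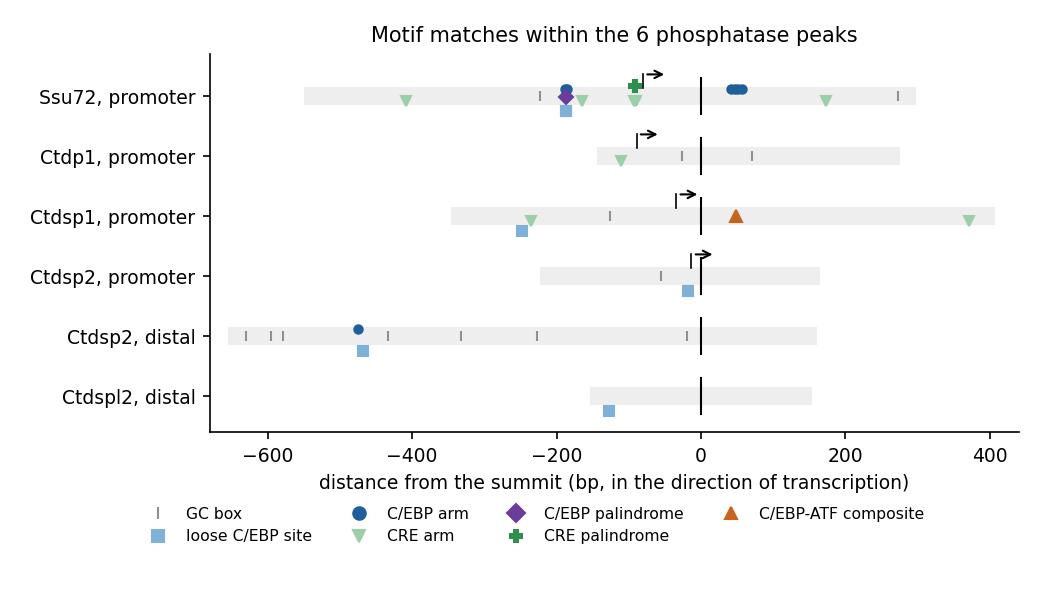
Matches to the 7 motifs of the legend in the 6 phosphatase peaks by distance from the summit (bp, in the direction of transcription). Grey bars are the peaks, vertical lines the summits and arrows the nearest start sites of promoter peaks. The row of Ssu72 shows the 4 TTGCG arms that begin at 40 to 55 bp, and a match to the C/EBP-ATF composite is present in the row of Ctdsp1 alone.

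The neighbourhood of Ssu72 was rich in peaks, with 14 summits within 150 kb of its start sites against 0 to 7 at the other 6 genes. All but the Ssu72 peak itself had another gene as their nearest. The strongest of these was a 50.1-fold peak (39.9 to 62.2, 81 reads) at 58828 bp from the nearest Ssu72 start site, with Atad3a as its nearest gene, and a 20.7-fold peak (15.3 to 27.4) lay 83 bp from a start site of Atad3a. The nearest upstream was a 3.77-fold peak (1.87 to 7.02, 8 reads) at Fndc10, at -10079 bp. The body of Ssu72, 29080 bp long, held no summit other than that in the first exon.

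**Figure D4:**
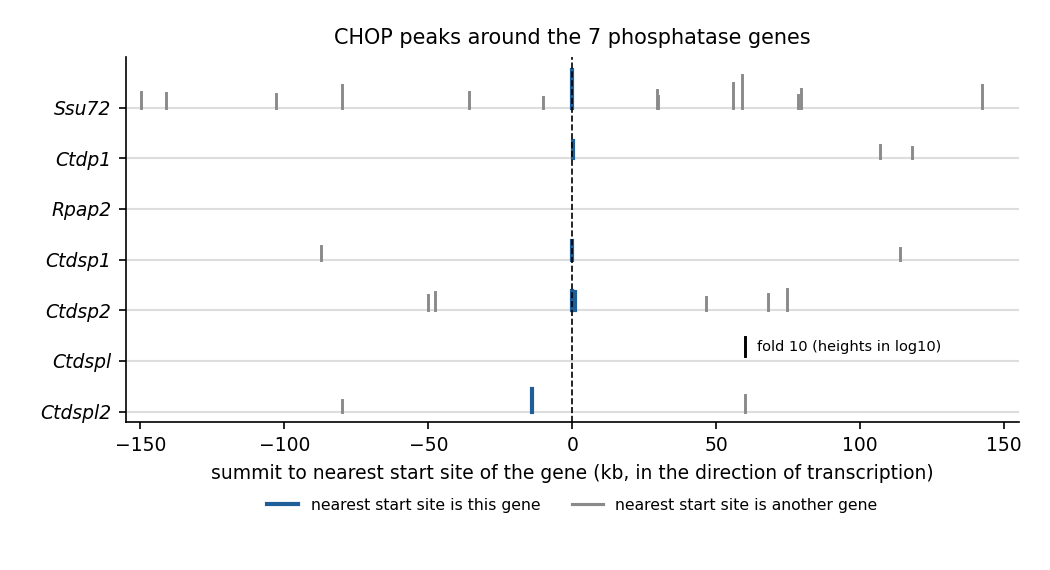
CHOP summits within 150 kb of the start sites of the 7 genes, by distance to the nearest start site of the gene (kb, in the direction of transcription). Bar height is the log10 of the fold, with a bar for 10-fold as scale, and blue marks summits whose nearest start site belongs to the gene. Rpap2 and Ctdspl have no summit in view, and Ssu72 has 14.

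The small phosphatase genes differed among themselves. On chromosome 1 Ctdsp1 had a promoter peak of 752 bp, from 74391198 to 74391949, and the summit fell in the 5′ UTR, 34 bp inside the gene. The summit rested on 17 reads over a background of 0.761, which gave 10.2-fold (6.19 to 16.0). On chromosome 10 Ctdsp2 had one of 386 bp, from 126978508 to 126978893, and the summit fell in the 5′ UTR, 13 bp inside the gene. It had 20 reads over 1.06 and likewise 10.2-fold (6.43 to 15.5). The folds of Ctdsp1 and Ctdsp2 are thus equal to 3 digits, and 22.3% of genes with a promoter peak had a higher one.

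A second peak of Ctdsp2, at 126979132 to 126979946 and 815 bp wide, was separated from the first by 238 bases. Its summit lay 1069 bp downstream of the start site in the first intron, just outside the promoter limit, with 18 reads and 9.24-fold (5.67 to 14.3). The intervals of both Ctdsp2 peaks overlap over most of their length. Near the distance limit of 50 kb were 2 peaks upstream of Ctdsp2, at -47684 bp with 9.75-fold and at -50004 bp with 6.67-fold. Neither counts for Ctdsp2, since Atp23 starts closer, at 29678 and 27358 bp. Of the 970 words of 32 bases around the Ctdsp2 start site, 794 occurred once in the reference. The other 176 recurred at chromosome 10, 130412247 to 130412453, by a processed pseudogene, Gm9770, and no summit lay within 5 kb of that copy. All words of 32 bases within 50 bp of both Ctdsp2 summits occurred once.

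The sequences at Ctdsp1 and Ctdsp2 are shown because they hold the single composite match of the 6 peaks and a loose C/EBP site within 50 bp of a summit. The composite match at Ctdsp1 was TGATGAAA, whose first base lay 45 bp downstream of the summit, so that its end fell outside the 50 bp window. Composite matches within 50 bp of the summit were present at 6.28% of all peaks, 1.89% of promoter peaks and 10.3% of distal peaks, and at 0 of these 6. In windows placed like the whole Ctdsp1 peak 14.7% of summits had a match. A loose C/EBP site and 2 arms of the cyclic AMP response element lay further from the Ctdsp1 summit. At Ctdsp2 a loose C/EBP site lay at the start site itself, with its first base at -22 bp from the summit. That motif was present within 50 bp of 5.46% of promoter summits. The stretches below are from chr1:74391577-74391606 and chr10:126978617-126978716 on the + strand, with the matches in capitals (at Ctdsp2 a CCAAT box comes first, then the C/EBP site).
Ctdsp1 composite: ggccccagaagTGATGAAAgctgcggcgga
Ctdsp2 upstream of the start site: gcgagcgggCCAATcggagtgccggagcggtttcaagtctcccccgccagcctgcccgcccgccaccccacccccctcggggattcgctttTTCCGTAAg

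The intronic peak of Ctdsp2 was of another composition. Its GC share was 76.3%, it held 7 GC boxes, of which 1 lay within 50 bp of the summit, and neither the composite nor TGACG had a match. A loose C/EBP site and a TTGCG lay at -471 and -477 bp from the summit. A GC box was present within 50 bp of 45.4% of promoter summits and 6.34% of distal summits.

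Ctdspl2, the more distant relative of the small phosphatases, had no summit within 1 kb of its 4 start sites. Mageb3 starts 91 bp from a Ctdspl2 start site on the other strand, inside the span of Ctdspl2. The distal peak of Ctdspl2 on chromosome 2, 121941781 to 121942086, lay 14068 bp upstream in sequence with no annotated transcript. With 24 reads over 0.594 it had 15.7-fold (10.3 to 23.0), the highest value of the phosphatase peaks after Ssu72, although its interval overlaps those of the other 4 peaks. Of the motifs searched it held a loose C/EBP site at -131 bp from the summit and no other match.

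This peak stood apart from the other 5 in its sequence. The reference marks 62.7% of its length as repeat by soft-masking, against 0 to 21.4% in the other 5, and 20.1% of all distal peaks were masked over more than 50% of their length. Of the words of 20 bases within 50 bp of its summit 20.7% occurred once in the reference, and the most frequent occurred 47574 times, whereas 93.9 to 100% occurred once at the other 5 summits. Of words of 32 bases 58.6% occurred once, with a highest count of 9681, against 100% at the other 5. The peak was 306 bp wide. Without peaks masked over more than 50% of their length, the distal peaks of the phosphatase genes fell from 2 to 1, that of Ctdsp2. Whether reads from other copies of the repeat add to the peak was not tested.

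Ctdspl, the remaining small phosphatase, had no summit within 150 kb. The nearest summit, at Itga9, was 327921 bp away with 7.5-fold (3.84 to 13.6, 9 reads). The start sites of Ctdspl were on average the richest in GC of the 7 (74.4% within 500 bp, above 99.5% of genes). Their mean CpG ratio of 0.945 was close to that of Ssu72 (0.959). The genes with the highest CpG ratios of the 7 were thus the gene with the strongest peak and a gene with none. All 970 words of 32 bases around the outermost start site of Ctdspl occurred once in the reference. An antisense gene, Gm2415, starts 2 bp from a Ctdspl start site on the other strand, and a noncoding gene, Gm16295, starts 1580 bp away. Since the list holds only peaks past the caller's threshold, the lowest with 4 reads at the summit, weaker signal at Ctdspl cannot be seen here.

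The 3 small phosphatase genes are also hosts of the miR-26 family, which lies in their introns in mouse. The mature sequences, from RefSeq on GRCm38.p6, are shown with the seed (bases 2 to 8) in capitals because the arms named 5p share 1 seed across the hosts.
mmu-miR-26b-5p (in Ctdsp1): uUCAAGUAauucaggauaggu
mmu-miR-26a-5p (in Ctdsp2 and Ctdspl): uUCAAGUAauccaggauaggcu
The distance from the mature miRNA to the nearest CHOP summit was 2781 bp in Ctdsp1, 15757 bp in Ctdsp2 and 274243 bp in Ctdspl. That summit is the promoter summit in Ctdsp1 and the intronic summit in Ctdsp2. In both hosts the promoter peak also lies upstream of the miRNA, and in Ctdspl no peak is near either. A second start site of Ctdsp2, 83 bp from the start of the Mir26a-2 gene, had no summit within 1 kb. RNA was not measured in this series.

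Ctdp1 encodes the phosphatase that recycles the polymerase after termination. A promoter peak of 418 bp covered 80469331 to 80469748 of chromosome 18, and its summit fell in the 5′ UTR, 89 bp inside the gene. With 19 reads over a background of 1.32 it had 8.62-fold (5.36 to 13.2), and 31.8% of genes with a promoter peak had a higher fold. An annotated noncoding gene, AC127256.1, starts 838 bp away from the Ctdp1 start site on the opposite strand. The peak held 2 GC boxes, of which 1 was within 50 bp of the summit, as well as an ETS site and an arm of the cyclic AMP response element further off, and no match to any C/EBP motif. The 2 other summits within 150 kb lay more than 100 kb downstream, by Kcng2.

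Rpap2 encodes a phosphatase that also helps to carry the polymerase into the nucleus. Its start sites on chromosome 5, 107597373 to 107597982, had no summit within 150 kb, and the nearest, by Evi5, was 270589 bp away with 9.04-fold (5.48 to 14.2, 17 reads). Glmn starts 57 bp from an Rpap2 start site on the other strand, so Glmn had no promoter peak there either. All 970 words of 32 bases around the outermost start site of Rpap2 occurred once in the reference.

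Lists of genes that work with the phosphatases are given beside the share of all protein-coding genes with a promoter peak, 27.9%. The share among the 11606 genes with a CpG ratio of 0.474 or more, 46.6%, is given as well. That limit was set by the phosphatase genes, and the lists were not matched to it. Among kinases of the tail and their cyclins, 7 of 12 (58.3%) had a promoter peak, with a median of 7.03-fold. The highest were Ccnh, the cyclin of the initiation kinase, at 12.1-fold (7.83 to 17.8), Cdk13, an elongation kinase, at 11.8-fold, Cdk8, the Mediator kinase, at 7.34-fold, and Ccnk, the cyclin of CDK13, at 7.03-fold, whose peak lay closer to Setd3. Cdk9, the pause release kinase, had 5.53-fold, and Cdk7, Cdk12, Ccnt1, Ccnt2 and Mnat1 had none. Among regulators of those kinases 9 of 10 (90.0%, against 27.9% of all genes and 46.6% of those above the CpG limit) had a promoter peak, with a median of 9.24-fold. They included Aff4, a scaffold of the super elongation complex, at 17.2-fold (12.8 to 22.6), Mllt3 at 10.2-fold and Aff1 at 9.48-fold. Hexim1, the inhibitor of CDK9, had a distal peak and no promoter peak.

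Among adaptors that bind the tail and other enzymes that act on it, 8 of 16 (a share near the 46.6% of genes above the CpG limit) had a promoter peak. Their median was 7.79-fold, with the highest at Scaf4 (11.4-fold), Ppp1cb (10.3-fold), Rprd2 (8.87-fold) and Rprd1a (8.04-fold). In the cleavage and polyadenylation machinery, with which SSU72 works, 8 of 15 (53.3%, likewise near 46.6%) had one, all weak beside that of Ssu72. Their median was 5.93-fold, and the highest were Cpsf4 (9.04-fold), Papola, the poly(A) polymerase (7.15-fold), Nudt21 (6.54-fold) and Sympk, the scaffold that holds SSU72 (6.27-fold, 3.21 to 11.3). The peak of Sympk lay 693 bp from its start and closer to Foxa3, and those of Cpsf4 and Nudt21 were within 1 kb of Ptcd1 and Ogfod1 too. Of 13 polymerase subunits 5 (38.5%, between 27.9% and 46.6%) had a promoter peak, Polr2f at 9.52-fold (999 bp from the summit), Polr2m at 8.62-fold, Polr2b at 6.89-fold, Polr2c at 4.74-fold and Polr2l at 3.86-fold. The peaks of Polr2b and Polr2l lay closer to Noa1 and Tspan4. Polr2a, whose product carries the tail, had neither a promoter nor a distal peak.

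Pausing and elongation factors had promoter peaks at 5 of 12 genes (41.7%, between the 27.9% of all genes and the 46.6% of those above the CpG limit). Far stronger than the rest was Nelfe, a subunit of the pausing complex, at 41.8-fold (33.5 to 51.6, 85 reads). Its summit was 18 bp from the Nelfe start and 163 bp from that of Skiv2l, so the peak counts for both genes. Nelfa followed at 7.80-fold, Cdc73 at 5.86-fold and Supt4a at 5.53-fold. Of 3 further phosphatases related to the small ones, 2 (66.7%) had a promoter peak, Timm50 with 9.55-fold and Ublcp1 with 7.10-fold, and Ctdnep1 had none. Among reported substrates of the small phosphatases 7 of 8 (87.5%, against 27.9% of all genes and 46.6% of those above the CpG limit) had a promoter peak. Their median was 7.36-fold. Smad2 (13.2-fold), Smad1 (9.13-fold), Rb1 (8.87-fold) and Smad5 (7.36-fold) were the highest, and Rest, the silencer of neuronal genes, had 5.66-fold. Across these 8 lists, with 89 genes, the highest promoter fold was that of Nelfe, below the interval of Ssu72. The medians of the lists ran from 5.86 to 9.24, beside 10.2 for the 4 phosphatase genes and 6.86 for all genes with a promoter peak.

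**Figure D5:**
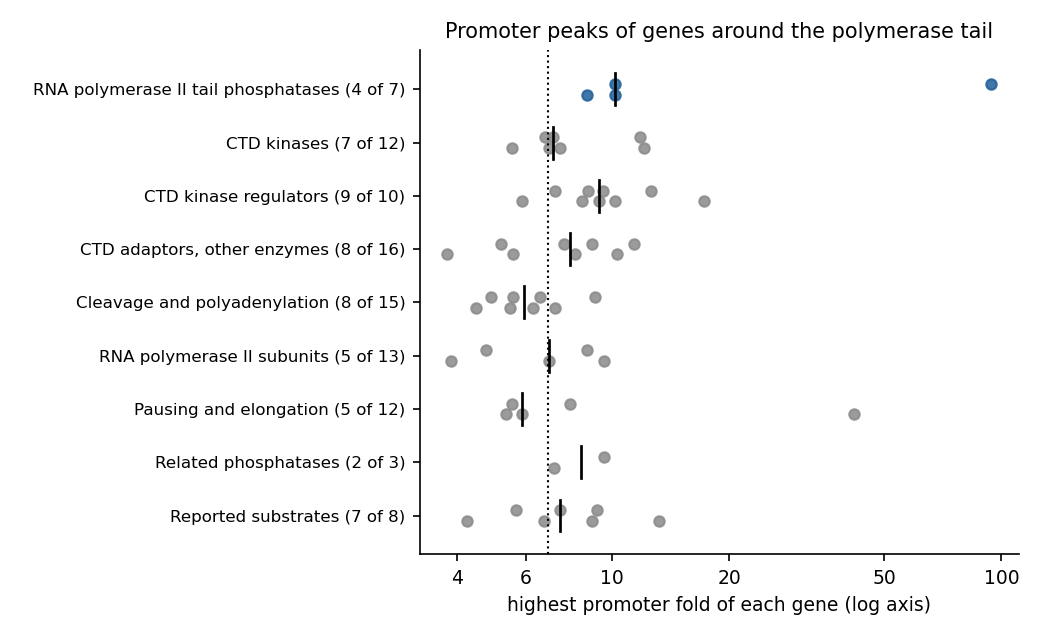
Highest promoter fold (log axis) of each gene with a promoter peak, for the phosphatases (blue) and 8 lists of their pathway (grey), with the number of genes that had one. Short vertical lines are list medians and the dotted line is the median of all genes with a promoter peak, 6.86. Ssu72 at 94.2 and Nelfe at 41.8 stand to the right of all others.

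The tissue label could not be checked on RNA. Of 7 hepatocyte marker genes 6 had a promoter or distal peak, of 5 Kupffer cell markers 0 and of 5 neuronal markers 3, all distal, against 38.2% of all protein-coding genes. Binding near a gene does not measure its expression.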

How the data were processed

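The authors deposited 1 peak list, from the CHOP immunoprecipitate. No file of the input was read here. Whether the authors' local background came from the input was not tested. The labels' protocols name single-end HiSeq reads, alignment by Bowtie to mm10 (up to 2 mismatches) and the removal of stacked duplicates. Per the submitters' processing notes and the labels, SAMtools 1.9, Sambamba 0.7.1 and MACS2 2.1.2 followed, and the sources used here do not give the Bowtie version. Each peak has a deposited fold (a ratio), −log10 p and −log10 q, a deposited score of 10 times −log10 q, and a summit offset.

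The reads at each summit and the background were solved from the fold and −log10 p for the 14157 peaks (residuals in −log10 p up to 3.13e-05), after the solver was tested on simulated data. Exact Poisson intervals at 95% cover counting error only, since reads carry no molecular identifiers and the background is held fixed. The median peak had 11 reads. Start sites are those of GENCODE M21, whose genome (GRCm38.p6) has chromosome lengths that contain all peaks. A gene's promoter fold is its highest.

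Members, 8 pathway lists, 12 motifs and alternatives were chosen with earlier results of these data known. Motifs searched on both strands without a match in the 6 peaks were the CHOP-type arm TGCAAT, the AP-1 site TGANTCA, the E-box CACGTG and the NRF1 palindrome. TTGCG and the removal of masked peaks were added after seeing the data. All 7 members, genes sharing a promoter peak with them, up to 4 genes of highest fold per list and 4 known targets were to be named. Other names were chosen after their values were seen. Some items are not reported here. RefSeq's tables on GRCm38.p6 gave the miRNAs. Python 3.11.15, numpy 2.4.6, pandas 2.3.3, scipy 1.17.1 and matplotlib 3.10.9 were used.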

Additional observations from a re-analysis of the deposited data

How the results depend on the processing

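Under other promoter distances (500 bp and 3 kb), other start-site sets, stricter peak thresholds and nearest-gene assignment, 4 of the 7 genes had a promoter peak each time, with a median of 10.2-fold, while the share of all genes with one ran from 21.0 to 30.3%. The number of genes with a distal peak (2) and of distal peaks (2) was the same with limits of 20 and 100 kb, the outermost start site or stricter thresholds. Without peaks soft-masked over more than 50% of their length, an alternative chosen after seeing the data, both became 1, because the Ctdspl2 peak was dropped. Ssu72 ranked 3 by fold, 6 by −log10 q and 10 by reads at the summit, and within its counting interval its rank by fold ran from 2 to 8. The composite match at Ctdsp1 fell outside the 50 bp window, so the number of phosphatase peaks with a match was 0 there and 1 within 100 bp or anywhere in the peak. No paired analysis was possible because each group has 1 library and only the immunoprecipitate has a peak list here. With 17 to 24 reads at 5 of the 6 summits, the counting intervals of those 5 folds overlap one another, which does not show that the folds are equal. The Ctdspl2 value of 15.7 lies above the upper bound of Ctdp1, 13.2.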

Other observations

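Besides Ssu72, 5 peaks held 2 TTGCG in a row. The highest of them was at A430005L14Rik, an uncharacterised gene on chromosome 4, with 27.9-fold and 62 reads, and the summit was 44 bp from a start site. The other 4 were near Commd3 (8.25-fold, 84855 bp from its start), Fam167a (6.46-fold), Coq8a (6.14-fold) and Alg10b (3.57-fold). These genes were named after their values were seen.

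A further kinase gene of the transcription machinery that was on none of the lists has a peak within 150 kb of Ssu72. Cdk11b had a promoter peak of 15.3-fold (9.61 to 23.2, 20 reads), at -79833 bp from the nearest Ssu72 start site and 57 bp from its own nearest start site.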
